A study of Mus musculus with 12 samples.

Results

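The genes described here encode the proteins of the mitochondrial ribosome, and they were taken from the count table by name, as every gene whose symbol is Mrpl or Mrps followed by a number and, in some cases, a letter from a to d. The table held 72 such genes of 25919, of which 45 are named for the large subunit (Mrpl) and 27 for the small subunit (Mrps). Their levels in cells labelled CD40 at day 2 were compared with those in cells labelled Kupffer cells at day 0.

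The study measured poly(A) RNA from mouse liver cells in bulk, counted at the 3′ end of transcripts, in 12 libraries of 4 groups. The comparison uses 4 libraries of the CD40 group at day 2 and 2 libraries of Kupffer cells, macrophages resident in liver, at day 0. All came from livers of C57BL/6 mice aged 7 weeks, and no genetic alteration is named for any group. The labels do not give the event from which days were counted, any treatment, the sorting gate, or whether libraries came from separate animals, so p-values reflect only how far these libraries vary, in part perhaps for technical reasons. The 6 libraries of the other groups were not read by gene, because column a of each of those groups runs almost wholly from the highest to the lowest count. Column a of Kupffer day 0 descends without a single step up as well, so the rows may have been ordered by it. It differed from Kupffer library b by a chi-square of 3.17 per degree of freedom, against 3.58 to 11.7 between CD40 libraries. Letters (a to d) only name the libraries within each group.

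Mitochondrial ribosomes translate the few membrane proteins that the mitochondrial genome encodes, all of them subunits of the oxidative phosphorylation complexes. Their ribosomal RNAs are mitochondrial transcripts, whereas all their proteins are encoded in the nucleus, made in the cytosol and imported. Many of these proteins have a bacterial counterpart, and others were added in mitochondria.

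Total counts were between 725683 and 2271228 in the CD40 libraries, and were 1612435 and 688498 in the Kupffer libraries, so 1 count was worth between 0.455 and 1.41 CPM (counts scaled to the library total after adjustment by the trimmed mean of M-values). Cd40 had 382, 375, 340 and 225 CPM in the CD40 libraries, against 20.1 and 18.1 CPM in the Kupffer libraries. The 8 classical monocyte markers made up 1.30% to 1.77% of counts in the CD40 libraries and 0.137% to 0.158% in the Kupffer libraries. The 11 Kupffer cell markers made up 0.0243% to 0.0360% in the CD40 libraries and 0.384% to 0.436% in the Kupffer libraries. Of these 11 markers, 8 fell and 2 rose in the CD40 group. The Kupffer libraries also held transcripts of other liver cells: the 12 markers of sinusoidal endothelial cells made up 0.0399% to 0.0770% of counts in the CD40 libraries and 1.75% to 1.95% in the Kupffer libraries, and 8 stellate cell and fibroblast markers 0.00331% to 0.0115% in the CD40 libraries and 0.147% to 0.179% in the Kupffer libraries. The 7 markers of conventional dendritic cells, of which 2 rose and 1 fell, made up 0.0622% to 0.125% of counts in the CD40 libraries and 0.0164% to 0.0196% in the Kupffer libraries. None of the Kupffer, endothelial, dendritic cell or monocyte markers was at 0 in all libraries of either group, and the stellate marker Col1a1 was at 0 in all CD40 libraries. The Kupffer libraries differed from each other in other markers. The 6 neutrophil markers, of which 1 rose and 1 fell, made up 0.0776% of counts in Kupffer library a and 0.306% in library b. In the CD40 libraries they made up 0.0729% to 0.158%. The 8 hepatocyte markers, of which 5 fell, made up 0.0270% and 0.0758% in Kupffer libraries a and b, and 0.00569% to 0.0126% in the CD40 libraries. The part of these cell types in the results below was not tested. In bulk samples, fewer cells of a type and less RNA per cell cannot be told apart.

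Most mitochondrial ribosomal protein genes that changed were higher in the CD40 group. Of the 69 members with enough counts to be tested, 40 rose, 2 fell and 27 did not pass (edgeR quasi-likelihood test, Benjamini-Hochberg adjusted p under 0.05 over 9852 genes). The contrast was wide across all genes, of which 53.4% were called, 23.2% as higher and 30.2% as lower in the CD40 group. The median log2 fold change was 0.71 over the tested members and -0.10 over all genes tested. The changes were mostly moderate in size, and log2 fold changes of the tested members ran from -1.30 to 1.92.

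In the large subunit 28 of 44 tested members rose, none fell and 16 did not pass, with a median log2 fold change of 0.75. In the small subunit 12 of 25 rose, 2 fell and 11 did not pass, with a median of 0.67. Counted by overlap instead, all 4 CD40 libraries lay above both Kupffer libraries for 30 of 44 large subunit members and 16 of 25 small subunit members, against 29.7% of all genes. All 4 lay below both for 0 and 2 members, against 36.9% of all genes, and 66.6% of all genes were separate in either direction. Without Kupffer library a, 17 large and 6 small subunit members rose, while 14.8% of 9460 genes tested both with and without it did.

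**Figure D1:**
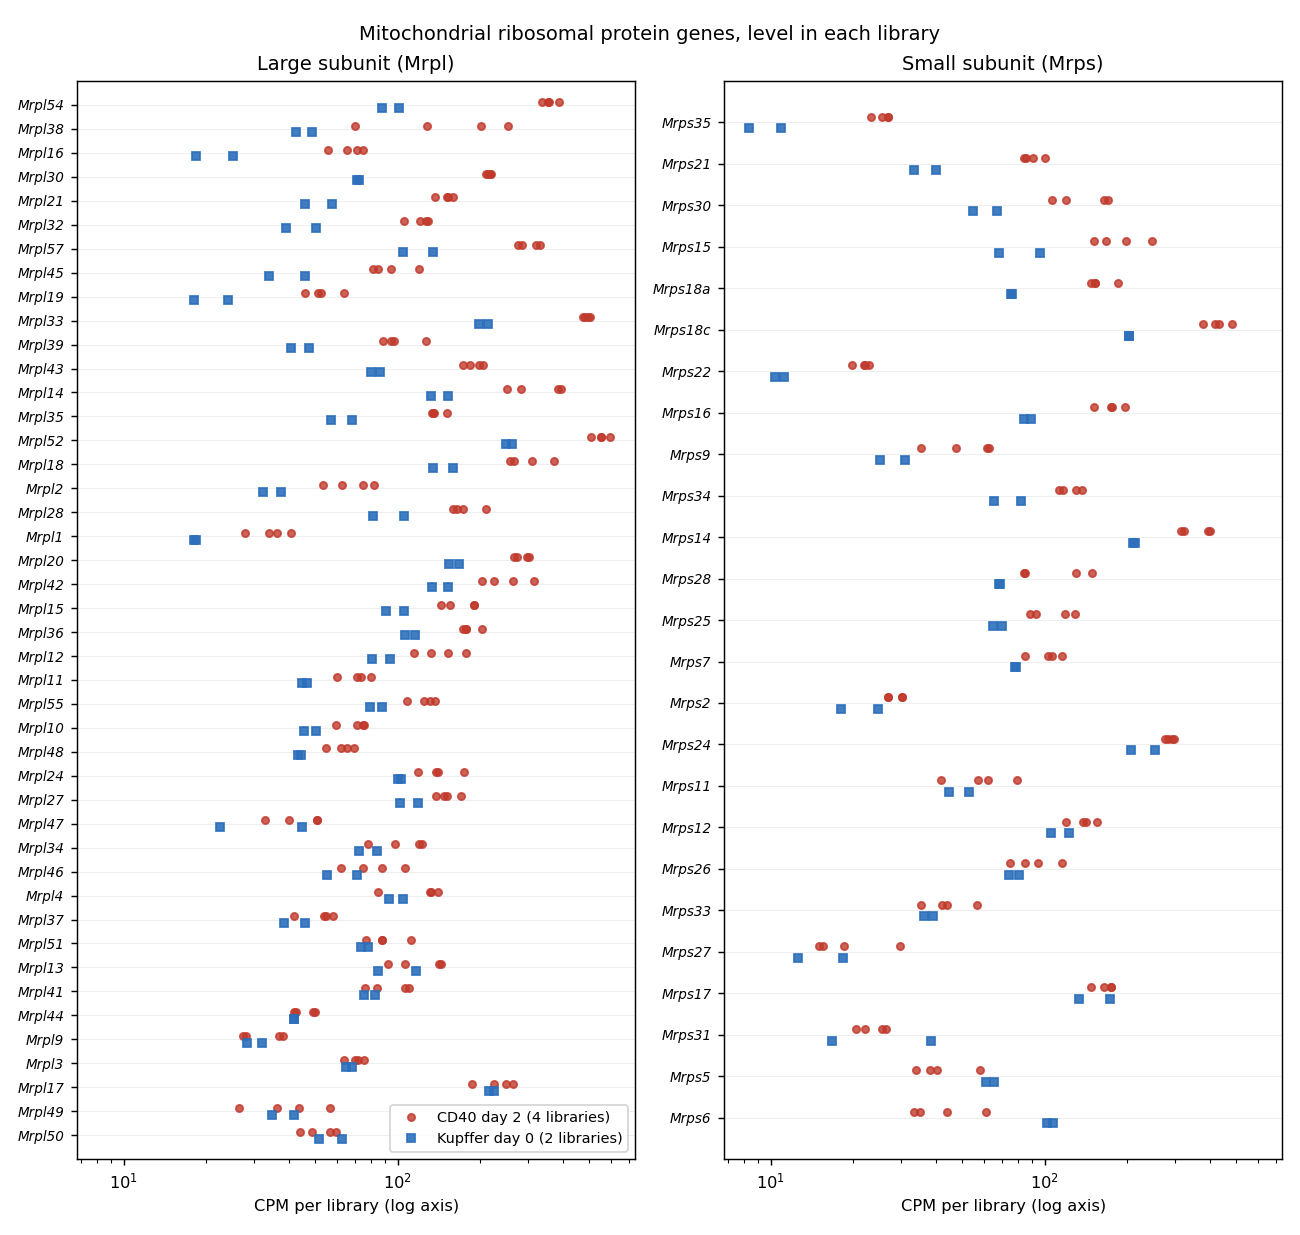
Level of each tested member in each library, in CPM on a log axis, with red circles for the 4 CD40 day 2 libraries and blue squares for the 2 Kupffer day 0 libraries; members run from the highest log2 fold change at the top to the lowest. The circles lie to the right of both squares for 30 of 44 large subunit members and 16 of 25 small subunit members.

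Summed over all members of a subunit, both subunits were higher in the CD40 libraries and kept apart from the Kupffer libraries. The large subunit genes summed to 7125, 7066, 6427 and 6389 CPM in CD40 libraries a to d, against 3679 and 3640.5 CPM in Kupffer libraries a and b. The small subunit genes summed to 3315, 3265, 2817 and 2744 CPM in the CD40 libraries, against 1965 and 2011 CPM in the Kupffer libraries. The lowest CD40 library lay above the higher Kupffer library in both sums. The large subunit means were 6752 ± 398 CPM in CD40 and 3659.5 ± 26.9 CPM in Kupffer libraries, a ratio of 1.85 (SD, n = 4 and 2). The small subunit means were 3035 ± 296 CPM in CD40 and 1988 ± 32.8 CPM in Kupffer libraries, a ratio of 1.53 (SD, n = 4 and 2). As plain shares of total counts, the ratios were lower. They were 1.66 for the large subunit (0.644% against 0.389%) and 1.37 for the small subunit (0.289% against 0.211%). The ratio of large to small subunit counts was 2.15, 2.16, 2.28 and 2.33 in the CD40 libraries, against 1.87 and 1.81 in the Kupffer libraries. All CD40 libraries were thus higher in this ratio, which is a description with no test, because the members were chosen by name with earlier results known. With the 2 small subunit genes that fell, Mrps5 and Mrps6, left out, it was 2.22, 2.23, 2.34 and 2.39 in the CD40 libraries and 2.05 and 1.98 in the Kupffer libraries, a choice made after the values were seen.

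**Figure D2:**
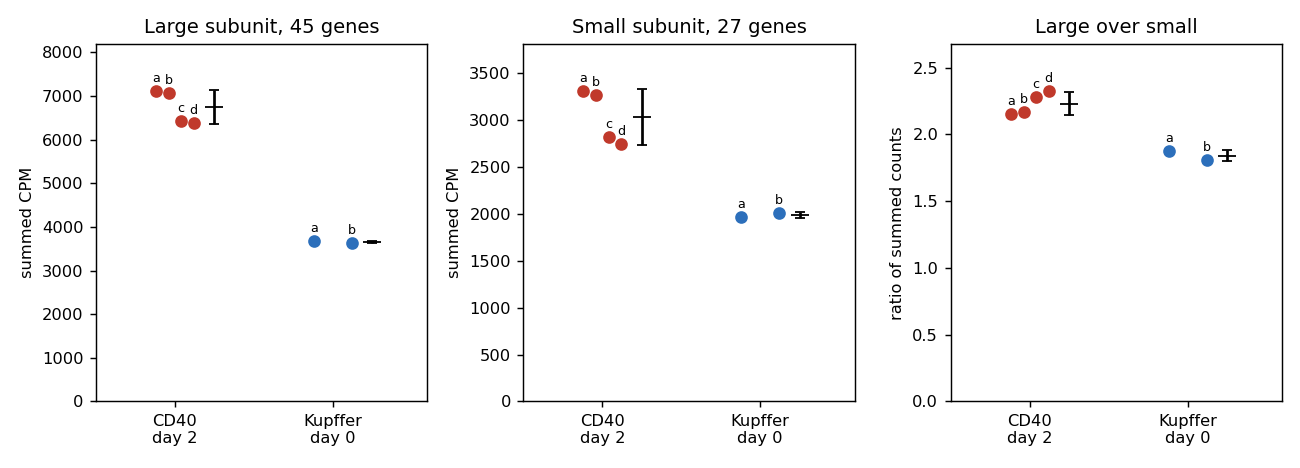
Summed CPM of the 45 large and 27 small subunit genes, and the ratio of their summed counts, in each library; points are libraries with their letter, and bars are the mean and SD of each group. The 4 CD40 day 2 libraries lie above both Kupffer day 0 libraries in all 3 panels.

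Within the CD40 group, library a or b held the highest of the 4 values for 53 of 69 tested members, against 55.3% of all genes tested, and library c or d held the lowest for 53 of 69, against 41.3% of all genes tested. The median coefficient of variation between CD40 libraries was 13.4% over the members and 24.8% over all genes tested. Mrpl38 was the most variable member, at 49.3%.

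Among the large subunit proteins, the greatest log2 fold changes were those of Mrpl54 and Mrpl38, both found only in mitochondrial ribosomes, and of Mrpl16, Mrpl30 and Mrpl21, which have bacterial counterparts. Mrpl54 (chr10:81264713-81266934, reverse strand, GRCm38) had 358, 354, 388 and 337 CPM in the CD40 libraries, against 101 and 87.7 CPM in the Kupffer libraries. It rose by 1.92 ± 0.17 on the log2 scale (SE, edgeR quasi-likelihood test, Benjamini-Hochberg adjusted p = 1.4e-05), and the 4 CD40 values lay close together and far above the Kupffer values. Mrpl38, a protein of the central protuberance, had 252, 201, 128 and 69.7 CPM in the CD40 libraries, against 42.5 and 48.7 CPM in the Kupffer libraries. All CD40 values were above the Kupffer values, but they spread more than 3-fold between libraries a and d. Its log2 fold change was 1.83 ± 0.47 (edgeR adjusted p = 0.00862), and it did not pass without Kupffer library a (adjusted p = 0.0972).

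Mrpl16, the counterpart of a bacterial protein near the site where transfer RNA enters, had 65.5, 75.0, 55.5 and 70.9 CPM in the CD40 libraries, against 18.4 and 25.1 CPM in the Kupffer libraries. Mrpl30 had 218, 211, 214 and 217 CPM in the CD40 libraries, against 71.2 and 72.4 CPM in the Kupffer libraries. Mrpl21 had 152, 160, 137 and 153 CPM in the CD40 libraries, against 57.4 and 46.0 CPM in the Kupffer libraries. All 3 genes were separate between the groups by wide margins, and Mrpl30 varied least among the libraries of each group. Their log2 fold changes were 1.65 ± 0.25, 1.58 ± 0.16 and 1.52 ± 0.19 (edgeR adjusted p = 0.00035, 3.58e-05 and 0.000114).

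The other 2 large subunit genes named here are those whose mean CPM, which is not divided by transcript length, was highest. Mrpl52 had 507, 555, 552 and 596 CPM in the CD40 libraries, against 262 and 249 CPM in the Kupffer libraries, and Mrpl33, which shares its strand with the predicted gene Gm43809, had 477, 504, 483 and 496 CPM in the CD40 libraries, against 214 and 198 CPM in the Kupffer libraries. Both genes were higher in every CD40 library, with log2 fold changes of 1.11 ± 0.16 and 1.25 ± 0.15 (edgeR adjusted p = 0.000254 and 0.000103).

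The proteins of the stalk, which recruits translation factors to the ribosome, had log2 fold changes within the middle range of the large subunit (quartiles 0.37 and 1.21). Mrpl10 had 75.5, 75.0, 71.0 and 59.6 CPM in the CD40 libraries, against 45.4 and 50.1 CPM in the Kupffer libraries. Mrpl11 had 71.0, 73.6, 80.1 and 60.2 CPM in the CD40 libraries, against 46.5 and 44.6 CPM in the Kupffer libraries. Mrpl12, which is also known to bind the mitochondrial RNA polymerase, had 153, 178, 115 and 132 CPM in the CD40 libraries, against 93.6 and 80.8 CPM in the Kupffer libraries. All 3 were higher in each CD40 library, with log2 fold changes of 0.56 ± 0.20, 0.64 ± 0.20 and 0.71 ± 0.22 (edgeR adjusted p = 0.0364, 0.0222 and 0.0197). These calls were near the threshold: Mrpl10 lost its call in 8 of 13 other settings, Mrpl11 in 7 and Mrpl12 in 3.

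At the other end, Mrpl50, Mrpl49 and Mrpl17 had the lowest values of the large subunit, with log2 fold changes of -0.13 ± 0.21, 0.01 ± 0.31 and 0.07 ± 0.18, and none passed (edgeR adjusted p = 0.619, 0.985 and 0.774). Mrpl50 had 56.4, 59.4, 44.1 and 48.9 CPM in the CD40 libraries, against 51.7 and 62.7 CPM in the Kupffer libraries. Mrpl49 had 43.7, 56.6, 26.4 and 36.3 CPM in the CD40 libraries, against 41.9 and 34.8 CPM in the Kupffer libraries. Mrpl17, a protein at the exit of the peptide tunnel, had 249, 265, 224 and 187 CPM in the CD40 libraries, against 216 and 224 CPM in the Kupffer libraries. The libraries of the groups overlapped for all 3.

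The other 18 large subunit members that rose were Mrpl1, Mrpl2, Mrpl14, Mrpl15, Mrpl18, Mrpl19, Mrpl20, Mrpl27, Mrpl28, Mrpl32, Mrpl35, Mrpl36, Mrpl39, Mrpl42, Mrpl43, Mrpl45, Mrpl55 and Mrpl57, with log2 fold changes between 0.46 (Mrpl27) and 1.40 (Mrpl32, which a mitochondrial protease trims before assembly). Of these, Mrpl27 kept its call in only 5 of 13 other settings and Mrpl55 in 8. The other 13 that did not pass were Mrpl3, Mrpl4, Mrpl9, Mrpl13, Mrpl24, Mrpl34, Mrpl37, Mrpl41, Mrpl44, Mrpl46, Mrpl47, Mrpl48 and Mrpl51, with values between 0.08 (Mrpl3) and 0.51 (Mrpl48).

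**Figure D3:**
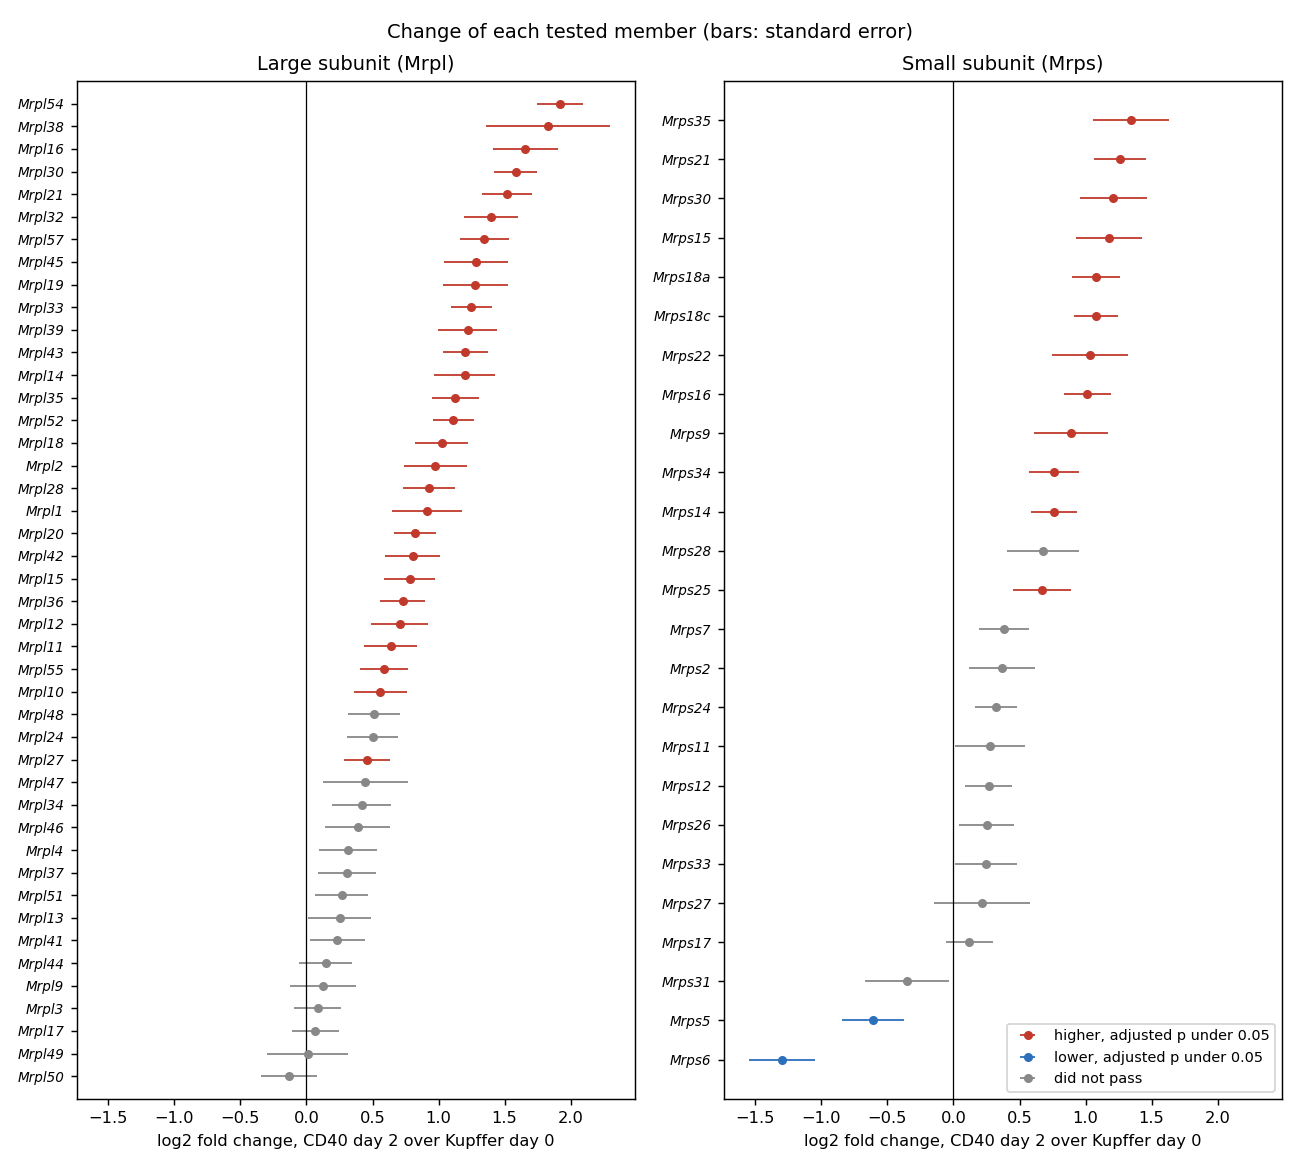
Log2 fold change of CD40 day 2 over Kupffer day 0 for each tested member, with its standard error as a bar; red points rose and blue points fell at an adjusted p under 0.05, and grey points did not pass. The large subunit has 28 red points and no blue point, and the small subunit 12 red and 2 blue points.

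In the small subunit the greatest log2 fold changes were those of Mrps35, Mrps21, Mrps30, Mrps15 and Mrps18a. Mrps35, a mitochondrial addition, had 25.5, 26.9, 26.9 and 23.2 CPM in the CD40 libraries, against 10.9 and 8.36 CPM in the Kupffer libraries. Mrps21 had 91.0, 100.4, 83.8 and 85.2 CPM in the CD40 libraries, against 40.2 and 33.4 CPM in the Kupffer libraries. Mrps15 had 198, 246, 168 and 151 CPM in the CD40 libraries, against 96.5 and 68.2 CPM in the Kupffer libraries. All 3 were separate between the groups, with log2 fold changes of 1.35 ± 0.29, 1.26 ± 0.20 and 1.18 ± 0.25 (edgeR adjusted p = 0.00326, 0.0005 and 0.0028).

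The names of Mrps30 and Mrps18a point to the small subunit, but structures of the mammalian ribosome place both proteins in the large subunit. Mrps30 had 170, 164, 119 and 106 CPM in the CD40 libraries, against 54.5 and 66.8 CPM in the Kupffer libraries. Mrps18a had 185, 147, 153 and 153 CPM in the CD40 libraries, against 75.8 and 75.2 CPM in the Kupffer libraries. Both rose, by 1.21 ± 0.25 and 1.08 ± 0.18 on the log2 scale (edgeR adjusted p = 0.00274 and 0.000729), and Mrps30 did not pass without Kupffer library a (adjusted p = 0.0559). Counting them with the large subunit, and leaving out Mrps36, which is now assigned to the 2-oxoglutarate dehydrogenase complex, gave 30 of 46 large subunit members that rose, with a median of 0.79. The small subunit then had 10 of 23 that rose and 2 that fell, with a median of 0.38. Without Kupffer library a, 18 large and 5 small subunit members by structure rose, and the small subunit median was 0.59, whereas with total-count scaling it was 0.22. The large to small ratio of counts was then 2.53, 2.50, 2.64 and 2.68 in the CD40 libraries, against 2.08 and 2.03 in the Kupffer libraries.

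Mrps18a is one of 3 paralogs of a bacterial small subunit protein. Mrps18c, which sits in the small subunit, had 483, 417, 434 and 379 CPM in the CD40 libraries, against 203 and 203 CPM in the Kupffer libraries. It rose by 1.08 ± 0.17 on the log2 scale (edgeR adjusted p = 0.000449), as much as Mrps18a, and all CD40 values lay above the Kupffer values. Mrps18b had 0 counts in all 6 libraries, which allows a level of up to 0.363 CPM over their 8255972 counts, for counting error only. Whether reads of Mrps18b were assigned to another entry or left out was not tested. Mrps14, the other gene with the highest mean CPM in the small subunit, had 402, 395, 315 and 322 CPM in the CD40 libraries, against 210.1 and 213 CPM in the Kupffer libraries, with no overlap and a log2 fold change of 0.76 ± 0.18 (edgeR adjusted p = 0.00476), and it did not pass without Kupffer library a (adjusted p = 0.0537).

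Both members that fell belong to the small subunit and have bacterial counterparts. Mrps6 had 61.0, 43.9, 33.2 and 35.1 CPM in the CD40 libraries, against 102 and 107 CPM in the Kupffer libraries. It fell by 1.30 ± 0.25 on the log2 scale (edgeR adjusted p = 0.00161), with no overlap. The gene for the inositol transporter Slc5a3 overlaps Mrps6 on the same strand, and reads of the pair may be split between them. Slc5a3 had 0, 2.83, 1.82 and 2.38 CPM in the CD40 libraries, against 41.9 and 50.1 CPM in the Kupffer libraries, and fell by 4.63 ± 0.45 on the log2 scale (edgeR adjusted p = 2.22e-05). The part of Slc5a3 reads in the values of Mrps6 was not tested. Mrps5 had 38.2, 58.0, 40.5 and 34.0 CPM in the CD40 libraries, against 65.5 and 61.3 CPM in the Kupffer libraries. Its values did not overlap, but its log2 fold change of -0.61 ± 0.23 was just past the threshold (edgeR adjusted p = 0.04998) and lost its call in 9 of 13 other settings. Mrps31 had 26.4, 25.5, 20.5 and 22.0 CPM in the CD40 libraries, against 38.5 and 16.7 CPM in the Kupffer libraries, and did not pass (log2 fold change -0.35 ± 0.32, edgeR adjusted p = 0.380).

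The other 5 small subunit members that rose were Mrps9, Mrps16, Mrps22, Mrps25 and Mrps34, with log2 fold changes between 0.67 (Mrps25) and 1.03 (Mrps22). Of these, Mrps9 and Mrps25 each kept their call in 9 of 13 other settings. The other 10 that did not pass were Mrps2, Mrps7, Mrps11, Mrps12, Mrps17, Mrps24, Mrps26, Mrps27, Mrps28 and Mrps33, with values between 0.12 (Mrps17) and 0.68 (Mrps28). Mrps24 overlaps Urgcp and Mrps34 overlaps Nme3 on the same strand, and Mrpl46 and Mrps11 overlap each other on opposite strands, so their counts are uncertain where reads were shared.

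In all, 3 members could not be tested at these counts. Besides Mrps18b these were Mrpl23, with 17 counts over the CD40 libraries and 10 over the Kupffer libraries, and Mrps36, with 4, 2, 8 and 5 counts in the CD40 libraries and 3 and 1 in the Kupffer libraries. Both have a pseudogene entry that took more counts: Mrpl23-ps1 held 798 counts and Mrps36-ps1 240, and reads of a gene and its related copy may be divided between them. Mrpl23-ps1 had 91.9, 129, 124 and 111 CPM in the CD40 libraries, against 60.9 and 58.5 CPM in the Kupffer libraries, with a log2 fold change of 0.93 ± 0.20 (edgeR adjusted p = 0.0035). The counts of both genes and their copies are therefore uncertain.

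Split by origin and place in the structure, proteins with a bacterial counterpart rose in 20 of 28 tested cases in the large subunit (median log2 fold change 0.75) and in 6 of 15 in the small subunit, where 2 fell (median 0.38). Proteins added in mitochondria rose in 10 of 18 cases in the large subunit (median 0.94) and in 4 of 8 in the small subunit (median 0.46). These values moved with 1 library: without Kupffer library a, 11 and 7 of the large subunit classes rose (bacterial counterpart and mitochondrial addition), and 4 and 1 of the small subunit classes, where the median of proteins with a bacterial counterpart was 0.65. Without Kupffer library b, 13 large subunit proteins with a bacterial counterpart rose. No difference between these classes was tested.

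Of 7 genes of the mitochondrial ribosome with other names, 6 rose and none fell, with a median log2 fold change of 0.87, and 3 of 6 tested rose without Kupffer library a. Aurkaip1 had 330, 289, 316 and 321 CPM in the CD40 libraries, against 160 and 184 CPM in the Kupffer libraries, and Chchd1 had 322, 361, 264 and 237 CPM in the CD40 libraries, against 132 and 152 CPM in the Kupffer libraries. Their log2 fold changes were 0.87 ± 0.16 and 1.06 ± 0.21 (edgeR adjusted p = 0.00127 and 0.00208). Ptcd3, the member that did not pass, had 5.44 ± 1.85 CPM in CD40 and 6.23 ± 0.933 CPM in Kupffer libraries (SD, n = 4 and 2).

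Few of the genes that help these ribosomes to assemble and work rose. Of 22 tested genes for assembly and modification of the ribosomal RNA, 1 rose (Malsu1, log2 fold change 0.75 ± 0.22, edgeR adjusted p = 0.0154) and 3 fell, with a median of -0.03, whose sign turned over the settings tried (-0.20 to 0.21). None of them fell under DESeq2, without CD40 library c or without Kupffer library a; 1 fell without Kupffer library b and 2 without CD40 library b or d. Malsu1 did not pass without Kupffer library a (adjusted p = 0.176). Over all genes tested, 23.2% rose and 30.2% fell. Of 10 mitochondrial translation factors, with a median of 0.17 (0.0017 to 0.29 over the settings), none rose and 1 fell. This was the recycling factor Mrrf, with 15.5, 17.0, 8.19 and 11.9 CPM in the CD40 libraries, against 44.2 and 58.5 CPM in the Kupffer libraries, a log2 fold change of -2.02 ± 0.30 (edgeR adjusted p = 0.000376). None of 12 genes for the charging of mitochondrial transfer RNA, mostly synthetases, rose or fell. Their median was -0.12 (between -0.46 and 0.02 over the settings), and 1 fell with no filter. Lars2 and Gatb, of which Gatb is not itself a synthetase, had log2 fold changes of -0.86 ± 0.41 and 0.72 ± 0.34.

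The mitochondrial transcripts, which include the RNA of these ribosomes and the messages they read, did not rise. Of 10 mitochondrially encoded transcripts in the test none rose and 8 fell, with a median log2 fold change of -1.49 (6 to 10 fell over the settings). The large ribosomal RNA, mt-Rnr2, averaged 8159 ± 1525 CPM in CD40 and 12099 ± 1048 CPM in Kupffer libraries (SD, n = 4 and 2), and fell by 0.57 ± 0.20 on the log2 scale (edgeR adjusted p = 0.0342), a call lost in 6 of 13 other settings. The small one, mt-Rnr1, did not pass (log2 fold change -0.72 ± 0.29, edgeR adjusted p = 0.0621), but it passed as lower in 5 of 13 other settings. Libraries were primed on poly(A), so counts of these RNAs depend on their short tails. Of the messages, mt-Nd1 had 930.2, 801, 908 and 892 CPM in the CD40 libraries, against 2573 and 2547 CPM in the Kupffer libraries, and mt-Nd2 had 183, 127, 177 and 204 CPM in the CD40 libraries, against 849 and 728 CPM in the Kupffer libraries. Neither overlapped between groups, and their log2 fold changes were -1.54 ± 0.14 and -2.18 ± 0.19 (edgeR adjusted p = 1.75e-05 and 1.16e-05).

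The nuclear-encoded subunits of oxidative phosphorylation had a median log2 fold change of 0.76 (0.59 to 0.84 over the settings). Of these, 53 of 70 rose, a share of 75.7% beside the 23.2% of all genes tested, and none fell. Sdhb had 612, 600, 595 and 555 CPM in the CD40 libraries, against 175 and 173 CPM in the Kupffer libraries (log2 fold change 1.76 ± 0.16, edgeR adjusted p = 1.4e-05). The cytosolic ribosomal proteins had a median of 0.78, and 51 of 69 rose and 1 fell (Rps27, log2 fold change -1.29 ± 0.37, edgeR adjusted p = 0.0149, not passed under DESeq2 or without Kupffer library a). Rps27 was low, at 7.28, 7.07, 7.74 and 5.36 CPM in the CD40 libraries, against 20.7 and 11.1 CPM in the Kupffer libraries. Rps9 and Rps26 rose by 1.53 ± 0.16 and 1.32 ± 0.17 on the log2 scale (edgeR adjusted p = 3.44e-05 and 0.00013). The share of cytosolic ribosomal proteins that rose was 73.9%, beside 23.2% of all genes tested. Fewer genes of this list and of the oxidative phosphorylation list were called when either Kupffer library was left out. Proteins of import and folding, such as Timm8b and Timm13, rose in 11 of 26 cases and fell in 1 (Phb, log2 fold change -1.31 ± 0.29, edgeR adjusted p = 0.00367), with a median of 0.48. With total-count scaling 6 of 26 of these genes rose, beside 19.1% of all genes tested. With the filter of 10 counts in 4 libraries 6 of 26 rose, beside 23.6%. Fewer rose when either Kupffer library was left out, while the median was 0.54 without library a and 0.58 without library b. Of 13 genes for mitochondrial DNA expression and maintenance 3 rose, a share of 23.1% beside the 23.2% of all genes tested, and 2 fell. The list median was 0.14 (-0.10 to 0.23 over the settings). Polg and Polg2 fell, with log2 fold changes of -1.65 ± 0.31 and -2.01 ± 0.48 (edgeR adjusted p = 0.00132 and 0.00538). Slirp rose by 1.03 ± 0.16 (edgeR adjusted p = 0.000522). The number that rose was 1 without CD40 library a, Kupffer library a or Kupffer library b, and also under DESeq2, total-count scaling or the filter of 10 counts in 4 libraries, and 2 without CD40 library c or d. Among 11 regulators of mitochondrial genes 3 rose, a share of 27.3% beside the 23.2% of all genes tested, and 1 fell. Those that rose, Ppargc1b, Max and Eif4ebp1, had log2 fold changes of 1.79, 0.73 and 0.57. Eif4ebp1 lost its call in 4 of 13 other settings, and Ppargc1b and Max in 1 each. Nrf1, which binds many promoters of mitochondrial genes, fell by 0.54 ± 0.20 (edgeR adjusted p = 0.0394), a call lost in 9 of 13 other settings. Without either Kupffer library in turn, 1 regulator rose.

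**Figure D4:**
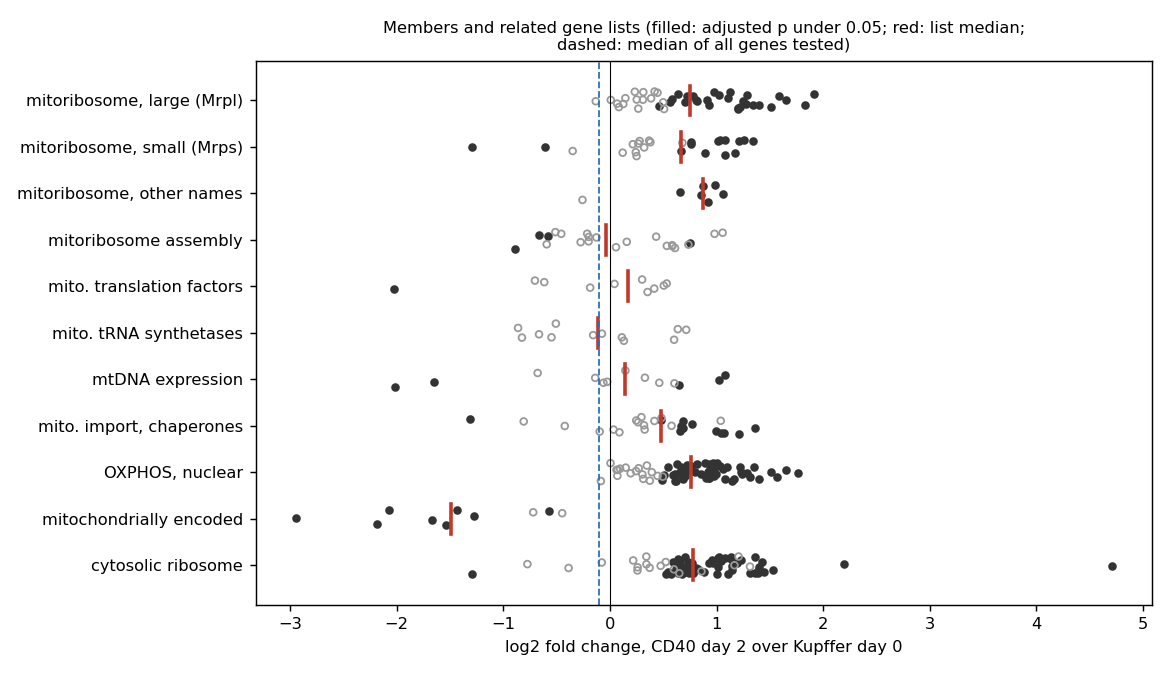
Log2 fold change of CD40 day 2 over Kupffer day 0 for each tested gene of 11 lists; filled points passed at an adjusted p under 0.05, the red line is a list's median and the dashed line the median of all genes tested (-0.10). The medians of both Mrp subunits, of the oxidative phosphorylation subunits and of the cytosolic ribosome lie between 0.67 and 0.78, and that of the mitochondrially encoded transcripts at -1.49.

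Promoters of the members are shown because many members moved together and because such genes are known to be read from short, GC-rich promoters with sites for the factors GABPA, NRF1 and YY1. A stretch from 150 bases before the start of the transcript to 30 bases from it is given for 10 members from the RefSeq table for GRCm38.p6, picked after the values and motifs were seen: 8 that rose, of which Mrpl16 and Mrps15 hold none of the motifs below, and both that fell. Of the 34 members that rose and had an entry, 21 held a motif, so the stretches shown are no sample of them. Capitals mark exact matches, on either strand, of CCGGAAG (GABPA), GCGCA followed by any base and GCGC (NRF1) or ATGGCGGC (YY1). Mrpl16 (chr19:11770265-11770444, forward), Mrpl30 (chr1:37890327-37890506, forward), Mrpl21 (chr19:3282892-3283071, forward), Mrpl43 (chr19:45006413-45006592, reverse), Mrpl52 (chr14:54426759-54426938, forward), Mrps21 (chr3:95871485-95871664, reverse), Mrps15 (chr4:126046778-126046957, forward), Mrps18a (chr17:46110854-46111033, forward), Mrps5 (chr2:127587276-127587455, forward) and Mrps6 (chr16:92058186-92058365, forward) read, 5′ to 3′:
Mrpl16: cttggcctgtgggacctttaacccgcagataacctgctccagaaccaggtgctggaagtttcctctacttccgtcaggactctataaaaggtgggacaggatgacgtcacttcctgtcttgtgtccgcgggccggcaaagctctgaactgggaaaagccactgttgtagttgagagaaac
Mrpl30: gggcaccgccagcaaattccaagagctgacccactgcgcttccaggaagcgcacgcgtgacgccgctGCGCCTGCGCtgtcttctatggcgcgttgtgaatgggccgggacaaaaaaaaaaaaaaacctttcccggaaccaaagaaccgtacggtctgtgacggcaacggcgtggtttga
Mrpl21: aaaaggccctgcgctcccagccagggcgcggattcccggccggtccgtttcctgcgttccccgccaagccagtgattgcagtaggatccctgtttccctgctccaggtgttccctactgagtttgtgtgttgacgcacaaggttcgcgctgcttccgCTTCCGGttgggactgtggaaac
Mrpl43: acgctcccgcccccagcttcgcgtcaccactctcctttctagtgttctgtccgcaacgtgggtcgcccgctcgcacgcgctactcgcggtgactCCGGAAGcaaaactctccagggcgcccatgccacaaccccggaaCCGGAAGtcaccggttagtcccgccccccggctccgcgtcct
Mrpl52: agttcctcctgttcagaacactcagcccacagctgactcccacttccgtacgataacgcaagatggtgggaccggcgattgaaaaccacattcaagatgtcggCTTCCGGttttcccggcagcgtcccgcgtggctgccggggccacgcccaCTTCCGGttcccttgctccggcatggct
Mrps21: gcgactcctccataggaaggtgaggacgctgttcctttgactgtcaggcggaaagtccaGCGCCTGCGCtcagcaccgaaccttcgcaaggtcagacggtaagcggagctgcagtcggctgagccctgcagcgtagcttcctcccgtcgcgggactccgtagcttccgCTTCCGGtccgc
Mrps15: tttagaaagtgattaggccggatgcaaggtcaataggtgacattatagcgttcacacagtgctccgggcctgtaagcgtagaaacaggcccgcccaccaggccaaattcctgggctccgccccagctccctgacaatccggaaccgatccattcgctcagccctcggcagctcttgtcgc
Mrps18a: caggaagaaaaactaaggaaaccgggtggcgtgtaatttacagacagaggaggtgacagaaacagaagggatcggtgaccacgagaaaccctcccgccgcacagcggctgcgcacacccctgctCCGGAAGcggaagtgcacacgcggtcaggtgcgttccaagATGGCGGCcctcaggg
Mrps5: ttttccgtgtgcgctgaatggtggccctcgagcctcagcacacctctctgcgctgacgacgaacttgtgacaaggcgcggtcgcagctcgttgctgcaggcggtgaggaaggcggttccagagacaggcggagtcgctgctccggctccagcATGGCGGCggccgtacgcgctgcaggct
Mrps6: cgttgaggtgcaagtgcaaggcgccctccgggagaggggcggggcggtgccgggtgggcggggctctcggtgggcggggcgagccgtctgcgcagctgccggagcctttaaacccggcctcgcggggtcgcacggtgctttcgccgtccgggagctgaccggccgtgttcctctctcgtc

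In the window of 250 bases before to 50 bases after the start, 58.7% of the 63 members with an entry held at least 1 of the 3 motifs, against 35.2% of 7040 tested genes with an entry. The motif of GABPA was in 34.9% of the members and 22.0% of tested genes, that of NRF1 in 20.6% and 12.4%, and that of YY1 in 15.9% and 6.15%. At least 1 motif was held by 61.8% of 34 members that rose and 58.3% of 24 that did not pass. The share was 35.3% and 37.5% for GABPA, 26.5% and 16.7% for NRF1, and 11.8% and 20.8% for YY1, in members that rose and in those that did not pass, and these differences were not tested. The promoter stretch of Mrps6 held none of the 3 in the letters shown, and that of Mrps5 held the YY1 motif. A match is no proof of binding.

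Several members lie head to head with a gene on the other strand. A partner starting within 1000 bases, head to head, was found for 16 of 69 tested members (23.2%), against 10.3% of 8715 tested genes with an annotation. Of the 11 partners that were tested 3 rose and 1 fell, while 23.2% of all genes tested rose and 30.2% fell. Mrpl32 and the proteasome gene Psma2, whose starts lie 75 bases apart, both rose, by 1.40 ± 0.20 and 1.17 ± 0.16 on the log2 scale. The partners Fau, 59 bases from Mrpl49, and Ptcd2, 81 bases from Mrps27, rose by 1.36 ± 0.26 and 2.19 ± 0.39. Neither Mrpl49 nor Mrps27 passed. Mrpl30 rose while Mitd1, 66 bases away, had 70.1, 49.5, 61.5 and 54.8 CPM in the CD40 libraries, against 61.4 and 61.3 CPM in the Kupffer libraries, with a log2 fold change of -0.05 ± 0.20. Mrpl50 did not pass, while its partner Zfp189, 83 bases away, fell by 2.99 ± 0.66 on the log2 scale (edgeR adjusted p = 0.00386; 0.0508 without Kupffer library b).

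Transcript length moved with the fold change over all genes, and members are short, with a median length of 866 bases against 1313 over all tested genes. The median log2 fold change of all tested genes was 0.14 among the shortest of 4 equal classes of transcripts and -0.55 in the longest. The members had a median of 0.81 in the shortest class (28 members), 0.44 in the second (24), 1.01 in the third (13) and 0.64 in the longest (4). The part of length in the result was not tested.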

How the data were processed

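The deposited table holds raw counts per gene symbol for 12 libraries. Per the labels' protocol, poly(A) RNA was reverse transcribed with barcoded primers carrying molecular identifiers, pooled and sequenced at the 3′ end. The submitters' processing notes name the build GRCm38.p6 and DESeq2 1.22.2. No source used here names the aligner or says whether reads or identifiers were counted. The counts of the 6 libraries compared were tested with edgeR 4.0.16 in R 4.3.3. The settings were TMM, filterByExpr, a two-sided quasi-likelihood test and Benjamini-Hochberg over 9852 genes, with calls at an adjusted p under 0.05. The procedure was also run on simulated counts in which few genes changed, up or down equally likely. That run cannot show how the calls hold in a contrast as wide as this one. The standard error is the log2 fold change over the square root of F. No column belonged to no sample, and 17 symbols had become dates. Replicate pairs differed by more than sampling noise, with chi-square values of 3.17 to 11.7 per degree of freedom.

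Members named with values per library were the stalk proteins, the Mrps18 paralogs, Mrps30 and Mrps36. By log2 fold change, the 5 highest and 3 lowest of each subunit were named too, as were the 2 with the highest mean CPM of each. For related lists, the 2 genes with the lowest adjusted p and the largest call against the majority were picked. Not all of these picks are printed above. Others, such as Mrpl32 and Slc5a3, were named after their values were seen. The members and lists were chosen with earlier results of these data known. Coordinates are from GENCODE vM21 (GRCm38). Promoter, length and neighbour descriptions were added after the values were seen. DESeq2 1.42.0, limma 3.58.1, other scalings, other filters and leaving out each library were the alternatives.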

Additional observations from a re-analysis of the deposited data

Results flagged for a closer look

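Mrps18a stood out in CD40 library a, at 185 CPM, because the gap to the nearest of the other 3 CD40 libraries, relative to the range of the group, was 0.842, above Dixon's 95% critical value for 4 samples. The other CD40 libraries had 147, 153 and 153 CPM. Chance alone puts about 1 in 20 groups past this value, and 69 members were examined.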

How the results depend on the processing

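Over 13 other settings, 23 of the 42 called members passed in all 13. Leaving out 1 library moved the number of large subunit members that rose between 17 and 32 and that of small subunit members between 6 and 13, the lowest without Kupffer library a. The number of small subunit members that fell was 1 under DESeq2, RLE size factors, no filter or upper-quartile scaling, and 1 to 2 when a library was left out. The large subunit median was 0.62 with at least 10 counts in 4 libraries and 0.59 with total counts, and the small subunit median was 0.38 with subunits by structure. Total-count scaling put the median of all genes at -0.27, against -0.10 as reported. Signs turned for Mrpl17 (-0.061 with 10 counts in 4 libraries, -0.095 with total counts), for Mrpl49 (-0.12 with 10 counts in 4 libraries, -0.10 with limma-voom, -0.16 with total counts, and between -0.11 and 0.19 when a library was left out) and for Mrps31 (between -0.72 and 0.47 when a library was left out). In some settings the sign also turned for Mrpl3 (lowest value -0.082), Mrpl9 (-0.039), Mrpl44 (-0.022), Mrpl47 (-0.057) and Mrps17 (-0.067). The cause was not tested. No paired analysis was possible because the columns carry no replicate number. With 2 Kupffer libraries, an exact permutation test of 1 value cannot go below 0.133 (two-sided).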
